A study of Mus musculus with 161 samples.

Results

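The domain described here lies between the second and the third of the boundaries that divide the Tsix–Xist region of the mouse X chromosome, at chrX:99431148-100451148 in the mm9 build, and spans 1020 kb. Its contacts were read by chromosome-conformation capture carbon copy (5C), in which a forward and a reverse primer are ligated when their HindIII fragments were joined in the fixed nucleus. A pair of primers was counted as a member when the midpoints of both fragments fell inside the domain and lay 40 kb or more apart. This gave 3946 members among the 239962 primer pairs of the 5C region at that distance, of which 3604 had a corrected value in at least 1 library. The rule used positions only and no value of these libraries. The boundaries themselves were set by the authors from insulation in earlier 5C libraries of untreated CTCF-AID cells. Boundaries that remained after auxin treatment were left out. Fewer contacts across them with CTCF than without it are therefore partly built into their choice.

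Topologically associating domains (TADs) are stretches of chromosome whose loci contact each other more often than they contact loci outside. In the loop-extrusion model, cohesin enlarges DNA loops until it meets CTCF, a zinc-finger protein that binds DNA in a defined orientation, so that bound CTCF sites at 2 boundaries tend to end up next to each other. The amino terminus of CTCF faces the incoming cohesin and carries residues that contact it.

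All cells were mouse embryonic stem cells derived from E14Tg2a, which carry a single X chromosome. In the transgene lines, endogenous CTCF was fused to an auxin-inducible degron (CTCF-AID) and a CTCF cDNA stood under a doxycycline-dependent TetO promoter, with Tir1 and Rtta3G also present; 69 libraries came from these cells, treated for 4 days either with auxin plus doxycycline (dox) or with auxin only. The full-length transgene (FL) had 14 libraries, the same line with auxin alone (FL no dox) had 2, and the deletion of residues 1-265 (dN1-265) had 6 libraries of clone 1 and 4 of clone 2. The other transgenes were a less expressed full-length line (FL low), amino-terminal deletions (dN1-31, dN13-33, dN1-88, dN89-178, dN179-265, dN264-288), carboxy-terminal deletions (dC576-614, dC577-736, dC615-736), the substitutions H288R and Y226A-F228A, the latter alone or with dN13-33, an N/C-terminal swap, a parylation mutant and a pair of sumoylation mutants. The sumoylation mutants carry K74R, and their labels also name a carboxy-terminal deletion, 576-614 in the first and 615-736 in the second. A further 22 libraries were from cells without treatment that express CTCF from its own locus: the untagged parental line, the CTCF-AID parental line, and 2 clones of each with residues 13-33 deleted from endogenous CTCF. Most transgene lines were a single clone, transgene levels were not measured in the data used here, and in a bulk library fewer cells with a contact and a weaker contact in every cell cannot be told apart. One of the 3 dC576-614 libraries has a title that names 615-736 and was grouped by its line name.

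Raw 5C totals ran from 3631870 to 23419010 counts over the 82 libraries with a complete count matrix. In the corrected matrices 10.04% of the member values were 0, against 41.7% of all values at 40 kb or more. Of the 135 fragments with a midpoint in the domain, 69 carried a forward and 66 a reverse primer, and between 455 and 870 kb from the domain start there was no primer midpoint over 414 kb. In this unread stretch lie the Dmrtc1 gene copies (Dmrtc1a, Dmrtc1b, Dmrtc1c1 and Dmrtc1c2) and many pseudogenes. Contacts could therefore be followed between a dense left part and a right end, with nothing known about the middle. Over members with at least 10 counts, any 2 libraries had identical counts in at most 3.36% of cases.

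The measured members were read against 5 landmark blocks (gene positions from GENCODE, mm9). The first 48.8 kb hold Cited1, which encodes a transcriptional coactivator. Next come Hdac8, a class I histone deacetylase gene at chrX:99479978-99700698 on the minus strand, and Phka1, which encodes a regulatory subunit of phosphorylase kinase, at chrX:99709314-99839585. A 46.8-kb stretch without protein-coding genes follows Phka1 up to the last primer of the left part, and the right end of 150 kb holds Nap1l2, a nucleosome assembly protein gene, and most of 4930519F16Rik.

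The FLAG-CTCF peaks of full-length cells number 13 in the domain, some of which overlap each other, and 8 of them lie in the unread stretch and 4 on a measured fragment. The peaks come from cells treated with auxin plus dox for 2 days, whereas the treated 5C libraries are from 4 days. There are 3 further peaks in the 20-kb bin of boundary 2 and 1 in that of boundary 3. Each peak is 200 bases long. Part of the known CTCF motif, the letters CC, then AG after 3 free bases and GGC after 2 more, was searched on both strands and was found in 50.8% of all 49682 peaks and in 2.13% of 22819 windows of 200 bases of the 5C region without a peak. In the domain it was found in 4 of 13 peaks. A match describes the letters, not a binding site, and a peak without one may hold another form of the motif. The 5 sequences that follow (mm9, plus strand, the matched letters in capitals) are 1 of the 3 peaks of boundary 2, the peak of boundary 3, and 3 of the 5 peaks in bins whose contacts are described further on. The Cited1 peak at 15.1 kb and a second Hdac8 peak at 243 kb, both without a match, are not printed.

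Boundary 2, chrX:99414572-99414771, between genes, match on the plus strand: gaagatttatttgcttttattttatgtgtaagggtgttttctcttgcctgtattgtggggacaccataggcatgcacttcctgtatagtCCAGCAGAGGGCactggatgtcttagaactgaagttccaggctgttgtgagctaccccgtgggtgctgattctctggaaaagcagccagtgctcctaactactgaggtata
Hdac8 intron, chrX:99672225-99672424, 241 kb from the domain start, match on the minus strand: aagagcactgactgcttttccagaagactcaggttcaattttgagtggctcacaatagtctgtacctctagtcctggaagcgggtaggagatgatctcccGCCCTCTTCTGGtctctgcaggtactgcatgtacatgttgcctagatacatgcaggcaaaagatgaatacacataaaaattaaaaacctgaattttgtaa
After Phka1, chrX:99856163-99856362, between genes, 425 kb from the domain start, no match: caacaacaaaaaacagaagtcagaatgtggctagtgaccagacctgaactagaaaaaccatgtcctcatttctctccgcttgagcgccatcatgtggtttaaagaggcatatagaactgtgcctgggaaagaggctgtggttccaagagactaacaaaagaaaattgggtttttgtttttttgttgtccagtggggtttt
After Phka1, chrX:99884686-99884885, between genes, 454 kb from the domain start, match on the plus strand: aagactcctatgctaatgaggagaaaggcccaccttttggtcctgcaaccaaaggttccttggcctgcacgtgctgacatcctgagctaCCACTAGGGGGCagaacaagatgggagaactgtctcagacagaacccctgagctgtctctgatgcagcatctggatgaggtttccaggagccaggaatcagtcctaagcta
Boundary 3, chrX:100455304-100455503, 4930519F16Rik intron, match on the plus strand: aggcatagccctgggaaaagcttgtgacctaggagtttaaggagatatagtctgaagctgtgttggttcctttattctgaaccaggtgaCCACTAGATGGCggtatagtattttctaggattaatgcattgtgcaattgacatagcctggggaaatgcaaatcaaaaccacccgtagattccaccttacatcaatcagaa

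The match of the Hdac8 peak and those of boundary 2 lay on opposite strands. The peak at 454 kb had a near copy in the unread stretch at chrX:100122159-100122358, 98.5% identical over its 200 bases on the opposite strand. One end of the HindIII fragment that holds the peak at 454 kb, chrX:99883455-99889288, also occurs 2 times on the X chromosome, judged from its outer 40 bases, so contacts of that fragment may partly come from the other copy. A further 5 fragments of the domain had an end that occurs elsewhere on the chromosome.

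The first question was how full the domain is of contacts, and it was asked with 1 value per library. Domain enrichment is log2 of the summed corrected contacts of all measured members over the sum expected from the mean of all primer pairs of the region in the same 20-kb step of distance. It is therefore a relative measure, and a rise elsewhere in the region lowers it. In FL cells it was 0.223 in the lowest library, 0.260 in the median and 0.312 in the highest, with a mean of 0.262 ± 0.0226 (SD, n = 14), which is 1.20 times the expected sum. Every FL library was above 0, so contacts inside the domain exceeded those of other pairs at the same distance.

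The domain enrichment of FL no dox cells, in which auxin was given to deplete CTCF-AID and no transgene was induced, was 0.198 and 0.200. Both libraries were below all 14 FL libraries. The difference was -0.0626 (two-sided exact permutation test over libraries, p = 0.0167, the smallest p that 2 libraries against 14 allow). Both FL no dox libraries and 2 FL libraries share a run of neighbouring library numbers, and within that run the difference was -0.0406, with a smallest possible p of 0.333. The labels do not say whether libraries came from separate cultures, so this and all other p-values measure the spread between libraries only.

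In dN1-265 cells the domain enrichment was 0.144 in the lowest library, 0.192 in the highest and 0.174 ± 0.0143 on average (SD, n = 10). All 10 libraries were below all 14 FL libraries. The difference of -0.0871 (permutation test, p = 2.0e-05, the smallest that 100000 resamples can give) amounts to a fold of 0.941. Within the runs of library numbers that contain both groups the difference was -0.0788 (permutation p = 6.3e-04). Clone 1 (0.180) and clone 2 (0.166) differed by 0.0144 (exact permutation p = 0.143, adjusted p = 0.268 over 15 differences between groups). From raw counts in place of corrected contacts, the dN1-265 difference was smaller, at -0.0476, and did not pass the threshold (permutation p = 0.0603).

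**Figure D1:**
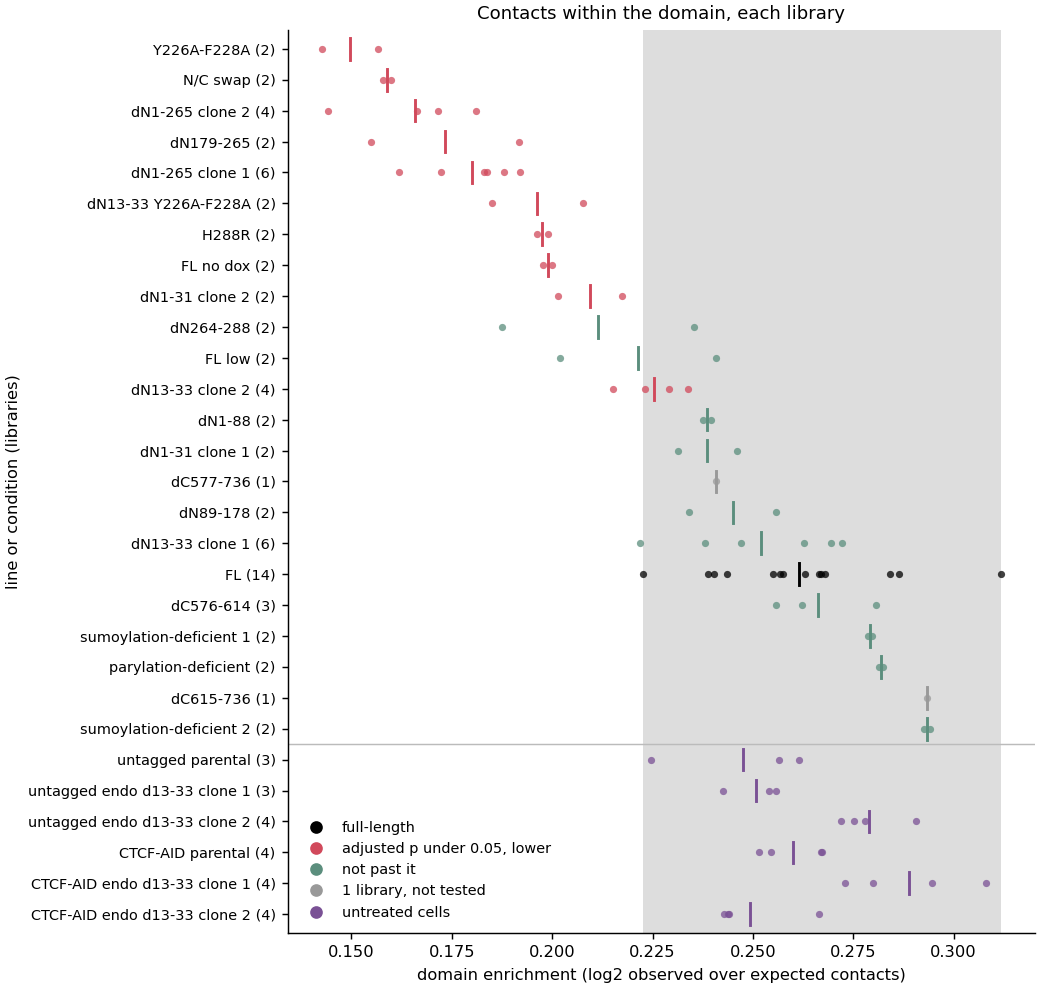
Domain enrichment (log2 observed over expected contacts, x axis) in each of the 91 libraries by line (y axis, number of libraries in brackets), with vertical ticks at the means and the FL range shaded. Y226A-F228A, N/C swap and both dN1-265 clones lie wholly to the left of the FL range of 0.223 to 0.312, and the untreated lines lie within it.

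Across the 20 transgene lines or conditions with at least 2 libraries, 10 had a lower domain enrichment than FL and 0 a higher one (exact permutation tests, Benjamini-Hochberg adjusted over the 20, threshold 0.05). By unadjusted p under 0.05 there were 11. The count was 0 in the dense left part alone, 2 with the share of all contacts or with the mean over bin pairs, and 14 with members 100 kb or more apart. Raw counts gave 0, but there the family was 16 lines without FL no dox, against 12 FL libraries. All comparisons share the FL libraries and are not independent of each other. The lowest were Y226A-F228A, whose substituted residues lie in the amino terminus, at 0.143 and 0.157, and N/C swap, in which the termini are exchanged, at 0.158 and 0.160. Neither overlapped with FL. With both dN1-265 clones pooled, members inside the left part alone were still lower than FL (difference -0.0453, adjusted p = 2.5e-04 by permutation over 46 tests). There 3 of the 10 libraries lay below all FL libraries. For members with an end at chrX:99830000-100370000, where primers are sparse, the difference was -0.151 (adjusted p = 1.0e-04 by permutation). Members joining the 2 sides of that stretch gave -0.211 (adjusted p = 1.8e-04).

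Deletions of different parts of the amino terminus were each compared with FL and not with each other. The dN179-265 line gave 0.155 and 0.192 and was called lower (adjusted p = 0.0333 by exact permutation). The dN1-88 line gave 0.238 and 0.240 and dN89-178 gave 0.234 and 0.256, all inside the FL range, and neither was called. The dN264-288 line, which removes the start of the zinc fingers, gave 0.187 and 0.235 and was not called (adjusted p = 0.0606 by exact permutation). H288R, a substitution at the end of that stretch, gave 0.196 and 0.199, between the values of dN264-288, and was called. Both dN179-265 and H288R were called at the smallest p that 2 libraries against 14 allow (exact permutation p = 0.0167). The difference between H288R and dN264-288 was not tested.

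Residues 13-33 and 1-31 were each removed in 2 clones. In dN13-33 clone 2 the 4 libraries ran from 0.215 to 0.234 and were called lower (mean 0.225, adjusted p = 0.0261 by exact permutation), but only 1 of them was below all FL libraries. In dN13-33 clone 1 the 6 libraries ran from 0.222 to 0.272 and were not called (mean 0.252, adjusted p = 0.402). The clones themselves differed by 0.0266 (exact permutation p = 0.0476, adjusted p = 0.122). Clone 2 of dN1-31 gave 0.202 and 0.217 and was called lower, and clone 1 gave 0.231 and 0.246 and was not. The difference between the dN1-31 clones was not tested.

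When Y226A-F228A was combined with dN13-33, the values were 0.185 and 0.208, both above the 0.157 of the higher library with Y226A-F228A alone. The difference between these lines was not tested, and 2 libraries against 2 could not reach p = 0.05. FL low gave 0.202 and 0.241, on both sides of the lowest FL library, and was not called (adjusted p = 0.111 by exact permutation).

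Carboxy-terminal changes and mutants of modification sites stayed within the FL range. The 3 dC576-614 libraries gave 0.256, 0.262 and 0.281, the last of which is the library whose title names 615-736. The parylation mutant gave 0.281 and 0.283, the first sumoylation mutant 0.279 and 0.280, and the second 0.293 and 0.294. None of these was called, and the highest line mean, 0.293 in the second sumoylation mutant, exceeded FL by 0.0319 (adjusted p = 0.128 by exact permutation). The single libraries of dC577-736 and dC615-736, which allow no test, gave 0.241 and 0.293.

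In untreated cells the domain enrichment was 0.248 ± 0.0200 (SD, n = 3) in the untagged parental line and 0.260 ± 0.00823 (SD, n = 4) in the CTCF-AID parental line. CTCF-AID parental cells differed from treated FL cells by -0.00141 (adjusted p = 0.924 by exact permutation), while treatment and source of CTCF both differed between them. Deletion of residues 13-33 from endogenous CTCF changed the mean by 0.0193 in untagged cells (7 libraries against 3, adjusted p = 0.600) and by 0.00901 in CTCF-AID cells (8 against 4, adjusted p = 0.794, exact permutation tests). Neither passed the threshold. The means pool 2 clones each. In CTCF-AID cells clone 1 averaged 0.289 and clone 2 averaged 0.249, and 4 of the 8 libraries were above and 3 below all parental libraries (clone difference 0.0396, exact permutation p = 0.0286, adjusted p = 0.122). In untagged cells clone 1 averaged 0.251 and clone 2 averaged 0.279 (difference -0.0283, exact permutation p = 0.0571, adjusted p = 0.122). The 2 effects differed by 0.0103 (exact permutation p = 0.577, adjusted p = 0.786).

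The sharpness of the domain also depends on contacts that cross its ends, which were read as the same log2 ratio for 6509 measured pairs across boundary 2 and 5773 across boundary 3. In FL cells the contacts across boundary 2 ran from -0.334 to -0.258 (mean -0.300 ± 0.0253, SD, n = 14), below the expected level in every library. FL no dox cells gave -0.155 and -0.149, above all FL libraries (difference 0.148, exact permutation p = 0.0167, adjusted p = 0.0307 over 46 tests). In dN1-265 cells they ran from -0.261 to -0.210, and 8 of 10 libraries were above all FL libraries (difference 0.0637, permutation p = 2.0e-05, adjusted p = 1.0e-04). From raw counts this difference was 0.0488 and did not pass (permutation p = 0.0596).

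Boundary 3 was weaker. In FL cells the contacts across it averaged -0.0621 ± 0.0584 (SD, n = 14) and ran from -0.223 to -0.00889. The lowest 2 libraries, at -0.223 and -0.147, came from one run of library numbers, in which 2 CTCF-AID parental libraries gave -0.187 and -0.184 and an untagged parental library -0.139. The part of the run in these values was not tested. FL no dox gave 0.00303 and 0.0277, above all FL libraries (difference 0.0775, exact permutation p = 0.0167, adjusted p = 0.0307). The dN1-265 mean of -0.0310 exceeded FL by 0.0311, which did not pass the threshold (permutation p = 0.111, adjusted p = 0.160).

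Domain enrichment minus the value across both boundaries sets inner against outer contacts. It was 0.454 ± 0.0383 in FL (SD, n = 14; 0.401 to 0.5259), 0.268 and 0.285 in FL no dox, and 0.319 ± 0.0255 in dN1-265 (SD, n = 10; 0.278 to 0.351). Both conditions were lower than FL without overlap, with differences of -0.177 in FL no dox (exact permutation p = 0.0167) and -0.135 in dN1-265 (permutation p = 2.0e-05). Of all lines, Y226A-F228A had the lowest mean at 0.177 and N/C swap followed at 0.239, values given without a test. From raw counts the dN1-265 difference was -0.0707 (permutation p = 0.0535).

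**Figure D2:**
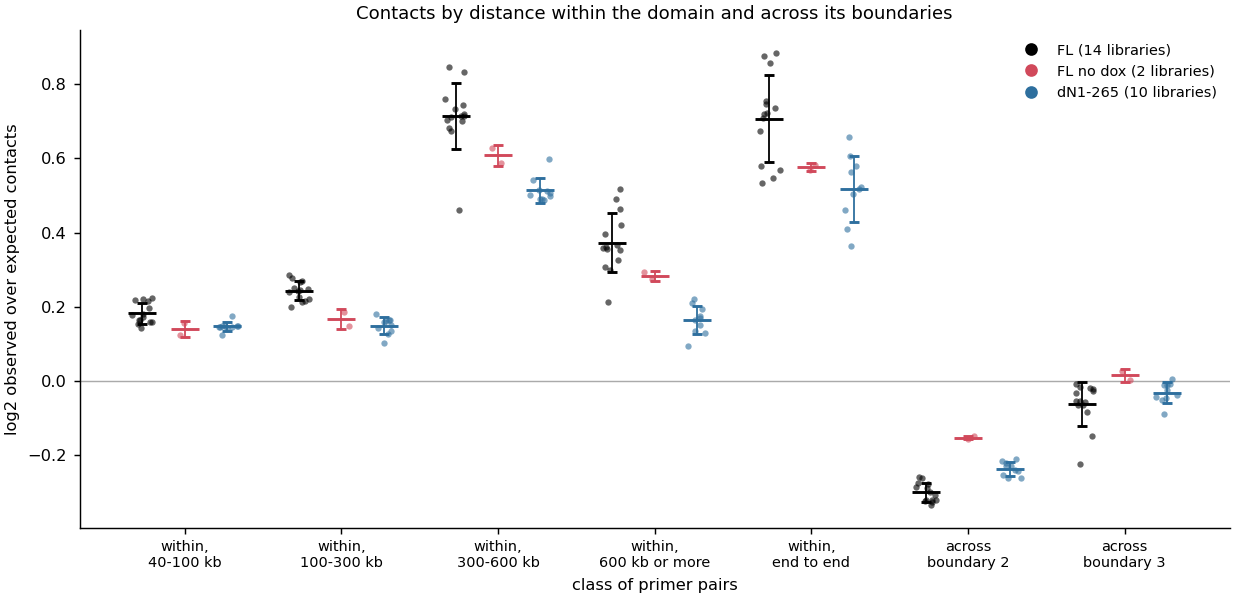
Log2 observed over expected contacts (y axis) of 5 classes of member pairs and of pairs across each boundary (x axis) in FL, FL no dox and dN1-265; points are libraries and bars the mean ± SD. Within the domain the dN1-265 means lie below FL in every class, whereas across boundary 2 the FL no dox libraries at -0.155 and -0.149 lie above the other groups.

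Within the domain, enrichment differed between bands of distance. Because of the unread stretch the bands also sample different places, so distance and position cannot be told apart. FL enrichment was 0.182 at 40 to 100 kb (697 measured pairs), 0.243 at 100 to 300 kb (1264 pairs), 0.714 at 300 to 600 kb (452 pairs) and 0.373 at 600 kb or more (1191 pairs). In dN1-265 cells all 4 bands were lower. The differences were -0.0349 (adjusted p = 0.00151), -0.0943, -0.200 and -0.209 (each with adjusted p = 1.0e-04 by permutation test). From raw counts the 40 to 100 kb and 100 to 300 kb differences were -0.0186 and -0.0451 and did not pass (permutation p = 0.385 and 0.0678), whereas the others did (-0.166 and -0.161). At 600 kb or more the FL libraries ran from 0.213 to 0.517 and the dN1-265 libraries from 0.0957 to 0.220, and 9 of the 10 lay below all FL libraries. At 300 to 600 kb the ranges overlapped, from 0.460 to 0.847 in FL and from 0.489 to 0.598 in dN1-265. There 0 of the 10 dN1-265 libraries lay below all FL libraries.

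FL no dox passed the threshold in 1 of the 4 bands, at 100 to 300 kb, with 0.149 and 0.187 against an FL mean of 0.243 (difference -0.0752, adjusted p = 0.0307 by exact permutation). At 600 kb or more its values were 0.274 and 0.293, inside the FL range (difference -0.0897, adjusted p = 0.163). Without the 2 FL libraries of the run with low left-to-right contacts, an alternative chosen after seeing the data, the no dox differences in both long-range bands had unadjusted p under 0.05. A direct comparison of FL no dox with dN1-265 was not made.

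Pairs that join the first 100 kb to the last 100 kb of the domain read the contact between its ends. In FL cells this end-to-end enrichment ran from 0.534 to 0.884 (mean 0.707 ± 0.117, SD, n = 14). FL no dox gave 0.5682 and 0.583, inside the FL range (difference -0.131, exact permutation p = 0.233), and against the 2 FL libraries of its own run the difference turned to 0.0245. The dN1-265 mean was 0.518 ± 0.0894 (SD, n = 10), lower by 0.189 (permutation p = 3.4e-04), and 6 of 10 libraries were below all FL libraries. Its clone 1 averaged 0.572 and clone 2 averaged 0.438 (difference 0.134, exact permutation p = 0.0190, adjusted p = 0.122). Untreated parental cells had end-to-end means of 0.496 (untagged) and 0.433 (CTCF-AID). Both were below the FL mean, and the 2 FL libraries of the run of numbers with the low values across boundary 3 averaged 0.563. The part of that run was not tested.

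**Figure D3:**
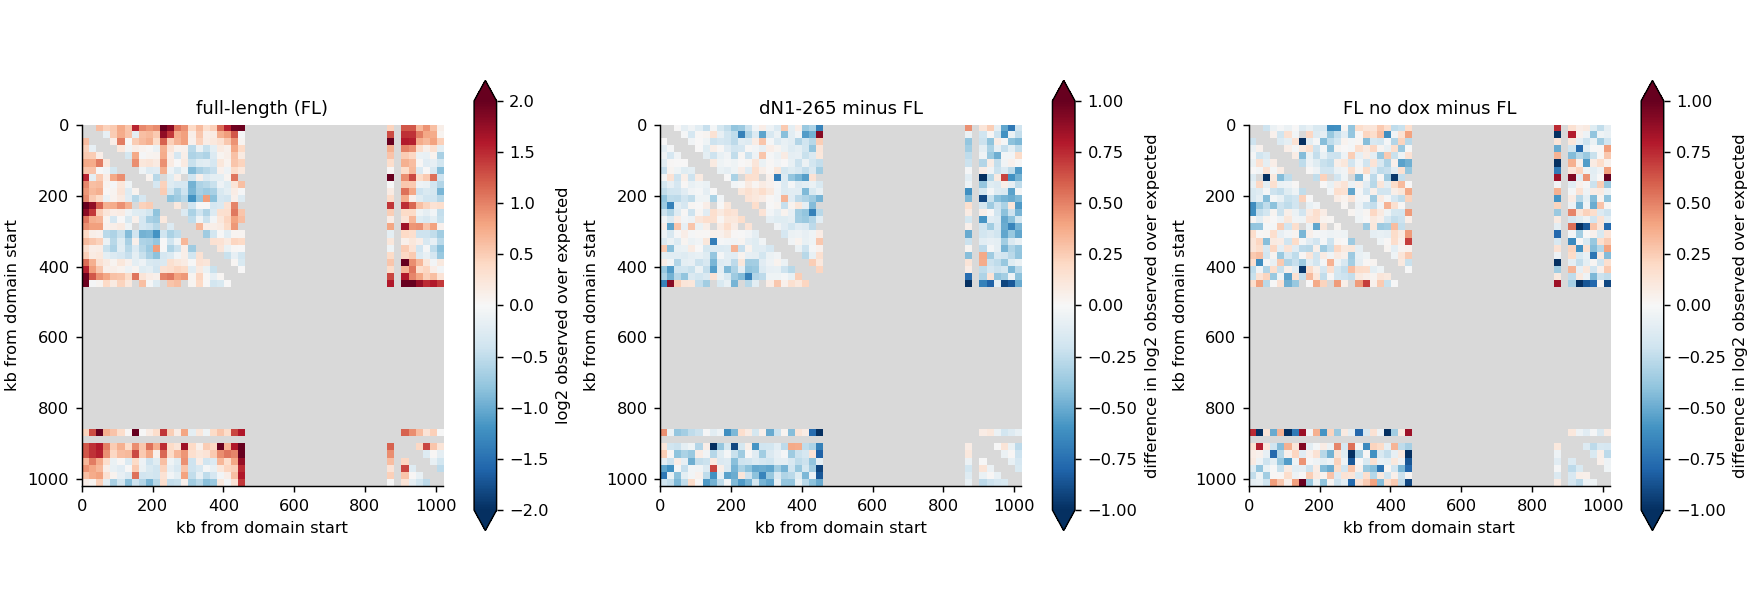
Mean log2 observed over expected contact in 20-kb bin pairs in FL (left), and the difference from it in dN1-265 (middle) and in FL no dox (right), with both axes in kb from the domain start; grey marks bin pairs under 40 kb or without primers. In FL the corners between the Cited1 end, the Hdac8 peak at 240 kb, the stretch after Phka1 at 420 and 440 kb and the right end are enriched. In dN1-265 most contacts of the stretch after Phka1 and of the right end are lower. Those of the bin at 0 kb with the bins at 860, 900 and 920 kb are higher.

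The enrichment was uneven among the landmark blocks. In FL cells it was highest between the Cited1 end and the stretch after Phka1 (1.39 ± 0.221, SD, n = 14), followed by that stretch with the right end (1.21 ± 0.0989), the Cited1 end with the right end (1.04 ± 0.196) and the Cited1 end with Hdac8 (0.857 ± 0.0724). The block pair of Hdac8 and Phka1, with 842 measured pairs, was the only one below expectation, at -0.150 ± 0.0678. Contacts within Hdac8 (0.176 ± 0.0246) and within Phka1 (0.116 ± 0.0725) were just above it.

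In dN1-265 cells the contact of the Cited1 end with the stretch after Phka1 ran from 0.651 to 1.34, against 1.02 to 1.84 in FL, and fell by 0.400 (20 pairs, adjusted p = 6.1e-04 by permutation test). The contact of the stretch with the right end ran from 0.577 to 1.02, against 1.07 to 1.37 in FL, with all 10 libraries below all FL libraries, and fell by 0.352 (90 pairs, adjusted p = 1.0e-04). Hdac8 with the stretch fell by 0.280 and Hdac8 with the right end by 0.188 (both adjusted p = 1.0e-04). One of the 6 fragments of the stretch is the one with a copied end, and the other blocks hold 5 fragments with a repeated end among them.

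The other block pairs with the right end or the Cited1 end were mostly lower in dN1-265 cells too. Phka1 with the right end fell by 0.203 (adjusted p = 0.00151 by permutation test; -0.167 from raw counts, p = 0.129) and the Cited1 end with Hdac8 by 0.144 (adjusted p = 1.0e-04). Smaller differences that passed the threshold were those of the Cited1 end with Phka1 (-0.0902, adjusted p = 0.0315), within Phka1 (-0.0876, adjusted p = 0.0106) and of Phka1 with the stretch behind it (-0.0626, adjusted p = 0.0299). From raw counts these 3 did not pass (-0.0596, -0.0692 and -0.0225, permutation p = 0.228, 0.109 and 0.529), and within runs the last did not (-0.0453, permutation p = 0.0692). The Cited1 end with the right end (-0.173), contacts within Hdac8 (-0.0206), within the right end (-0.0306) and between Hdac8 and Phka1 (-0.0417) did not pass it (adjusted p = 0.0502, 0.0502, 0.314 and 0.142 by permutation test).

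In FL no dox cells 3 block pairs passed the threshold, each with adjusted p = 0.0307 by exact permutation. The stretch after Phka1 with the right end gave 0.888 and 1.03, below all FL libraries (difference -0.250). The Cited1 end with Hdac8 gave 0.745 and 0.748, against a lowest FL value of 0.757 (difference -0.110). Contacts within Hdac8 gave 0.114 and 0.128, against a lowest FL value of 0.145 (difference -0.0548).

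**Figure D4:**
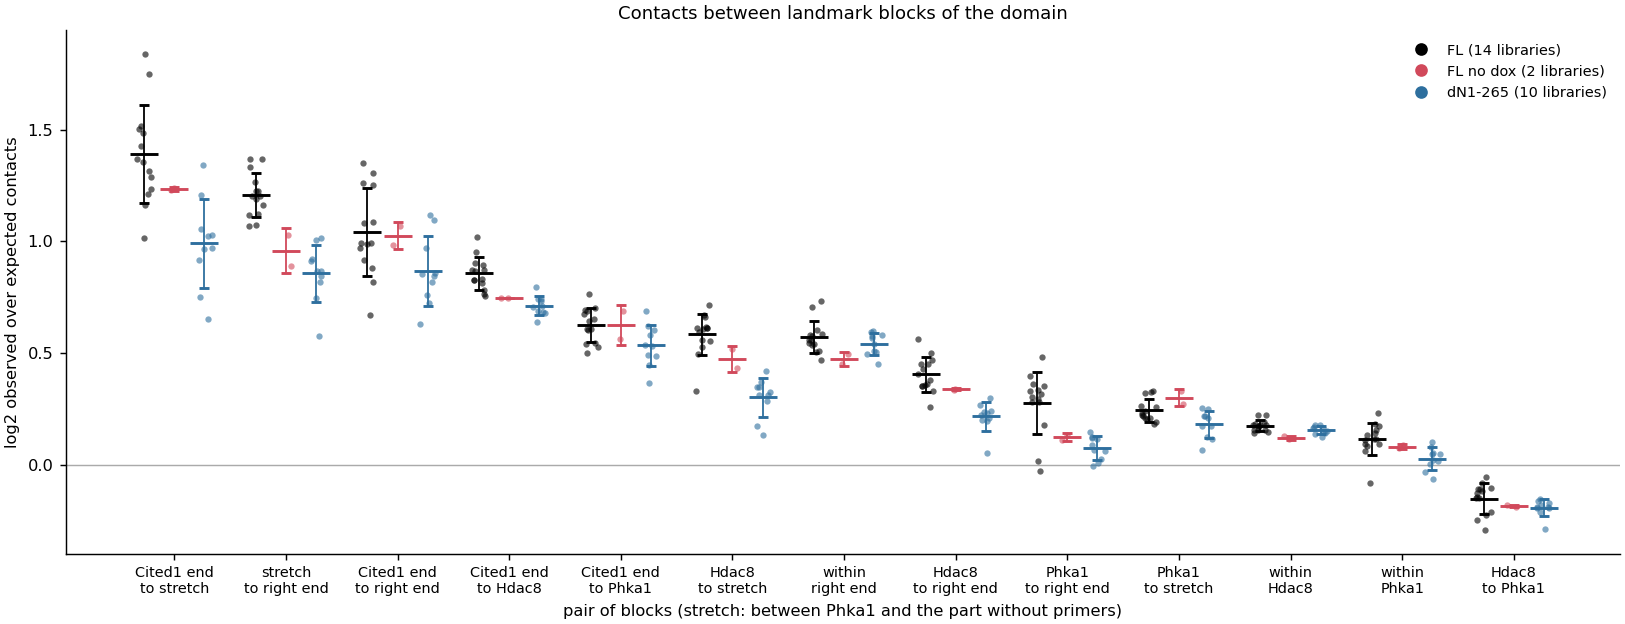
Log2 observed over expected contacts (y axis) between landmark blocks (x axis, ordered by the FL mean) in FL, FL no dox and dN1-265, with points for libraries and bars for the mean ± SD. The order runs from the Cited1 end with the stretch after Phka1, at 1.39 in FL, to Hdac8 with Phka1, at -0.150, and the dN1-265 points of the stretch with the right end lie below all FL points.

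Fragments with and without CTCF peaks were compared next, with bins of 20 kb that hold a peak. In FL cells, the 18 measured pairs between 2 peak-holding bins had an enrichment of 1.56 ± 0.195 (SD, n = 14), the 597 pairs with 1 peak-holding bin 0.399 ± 0.0189, and the 2989 pairs with none 0.216 ± 0.0316. In dN1-265 cells the corresponding means were 1.17, 0.296 and 0.137, and the differences of -0.384, -0.103 and -0.0789 all passed the threshold (adjusted p = 3.4e-04, 6.0e-05 and 6.0e-05 by permutation test over 12 tests). Pairs without a peak-holding bin were thus lower as well, with all 10 dN1-265 libraries below all FL libraries. In FL no dox cells pairs without a peak-holding bin were lower (difference -0.0682, adjusted p = 0.0281 by exact permutation), and pairs with 1 or 2 such bins did not pass the threshold (differences -0.0305 and -0.251, adjusted p = 0.0800 for both). Within the run of the FL no dox libraries the differences of the classes with 0, 1 and 2 such bins were -0.0385, -0.0289 and -0.388, where 0.333 is the smallest p possible.

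The same question was put to single primer pairs with limma on log2 (corrected contact + 1), adjusted over all pairs of the region with a mean of at least 1. Here and in what follows a corrected contact is given in units of 1 in 1000000 of the library's total. Of 3370 members tested in dN1-265 against FL, 5 were called, all lower, which is 0.148% of them, while 0.279% of all 85283 pairs tested were called (0.253% lower and 0.0258% higher). The share among the members was not above this background. Leaving out 1 library at a time gave 0 to 9 called members, with 18 of the 24 libraries moving the count by over 1.5 times. The 9 were 0.267% of members, against 0.421% of all pairs in that fit. With the run of library numbers in the fit 0 were called, against 0.0258% of all pairs. In FL no dox, 0 of 3406 members were called (limma; 147 at an unadjusted p under 0.05), against 0.0139% of all 86630 pairs (0.00808% lower and 0.00577% higher), while edgeR on raw counts called 0 and DESeq2 2 (0.0587%, against 0.203% of all pairs). The count fits had 1 FL no dox library, which is assumed to vary like the others.

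The called pair with the largest fall joined a Phka1 fragment (chrX:99789985-99792753) to one at the right end (chrX:100351014-100351881), 560 kb away. Its corrected contact was 0 in the lowest, 8.48 in the median and 17.9 in the highest FL library, and 0, 1.46 and 7.47 in dN1-265, so the ranges overlapped (limma log2 difference -1.77 ± 0.374, SE, adjusted p = 0.0347). FL no dox gave 0.716 and 4.90. A second pair joined Hdac8, where it overlaps the noncoding gene Gm14858 (chrX:99536478-99540655), to Phka1 (chrX:99829811-99830727), with 6.58, 9.78 and 18.5 in FL and 0.458, 4.30 and 9.02 in dN1-265 (log2 difference -1.18 ± 0.251, SE, limma adjusted p = 0.0378).

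The next pair of called contacts both start from the Hdac8 fragments that hold the CTCF peaks of that gene and reach 179 kb into the stretch after Phka1. The fragment at chrX:99670588-99673333, with the Hdac8 peak printed above, and that at chrX:99848592-99852457, with the pseudogene Gm9109, had 8.49, 18.2 and 24.3 units in FL and 5.20, 8.94 and 17.3 in dN1-265 (log2 difference -0.89 ± 0.197, SE, limma adjusted p = 0.0439). Its neighbour at chrX:99673333-99678075 with chrX:99854205-99855155 had 10.8, 20.6 and 32.4 in FL and 7.10, 11.5 and 14.5 in dN1-265 (log2 difference -0.85 ± 0.184, SE, limma adjusted p = 0.0389). These 2 pairs stayed inside the FL range in FL no dox, at 14.3 and 19.7 for the one and 19.8 and 21.3 for the other. The fifth called pair, of chrX:99857989-99883455 with chrX:100400987-100402092 in 4930519F16Rik, was outside the rule for named pairs and went from a median of 5.42 to 3.28 (log2 difference -0.69 ± 0.147, SE, limma adjusted p = 0.0378).

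Pairs with the highest mean observed over expected in FL cells varied widely between libraries. The top pair, between Gm14858 and Hdac8 sequence (chrX:99482490-99483294) and the right end (chrX:100303825-100304224), had a mean of 18.5 times the expected contact, but from 2.83 to 95.9 among FL libraries. The second, from Hdac8 (chrX:99642958-99644622) to Phka1 (chrX:99787055-99788504), had 16.0 times, from 6.09 to 53.8. Neither passed the threshold between dN1-265 and FL (limma adjusted p = 0.994 and 0.338). None of the 5 highest pairs was called in either comparison.

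Averaging primer pairs in 20-kb bins, an alternative chosen after seeing the data, gave more calls: 45 of 401 member bin pairs in dN1-265 (limma, adjusted over all bin pairs), 44 lower and 1 higher. That is 11.2%, while 13.4% of all 9475 bin pairs were called, 10.5% lower and 2.92% higher, so the total share was below the background. For FL no dox, 0 of 402 were called (17 at an unadjusted p under 0.05), against 0.148% of all 9488 (0.0316% lower and 0.116% higher). The number of dN1-265 calls was 2 of 70 at 40 to 100 kb, 17 of 136 at 100 to 300 kb, 13 of 71 at 300 to 600 kb and 13 of 124 at 600 kb or more. Bin pairs with 1 peak-holding bin were called in 22 of 97 cases and those with 2 in 1 of 5. Those without such a bin were called in 22 cases, which was 7.36% of them. The share called among all bin pairs of the region was not split by distance or by peak-holding bins. Whether any of these classes differs from its own background was therefore not tested.

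Of the 4 largest falls among called bin pairs, 3 started from the bin at 440 kb and went to the right end. The only fragment of that bin is the one with the copied end, so these 3 falls rest on it. The largest, with the bin at 860 kb (log2 difference -1.66), was not called with the run in the fit (-1.39, limma adjusted p = 0.214). The bin at 440 kb with that at 960 kb fell from a mean of 10.8 to 5.25 units (log2 difference -1.05 ± 0.205, SE, limma adjusted p = 0.00113). The bin at 420 kb, which has no copied fragment end, with that at 860 kb, which holds 2 fragments, 1 of them with a repeated end, fell from 11.2 to 6.09 (log2 difference -0.91 ± 0.238, SE, limma adjusted p = 0.0116), a call lost with the run in the fit (-0.72, adjusted p = 0.148). The single rise joined the bins at 380 and 420 kb, from Phka1 to the stretch behind it, from 35.8 to 43.1 units (log2 difference 0.27 ± 0.0660, SE, limma adjusted p = 0.00813), and with the run in the fit it was 0.18 and not called (adjusted p = 0.0509).

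One contact described in every library was that of the Hdac8 peak bin at 240 kb with the bin at 420 kb, which was picked out after its values were seen. FL libraries ran from 13.997 to 26.96 units per primer pair, with a median of 19.9, and dN1-265 libraries from 6.34 to 14.9, with a median of 12.4. The mean fell from 20.2 to 11.8 (log2 difference -0.73 ± 0.112, SE, limma adjusted p = 1.0e-04), and the difference was -0.72 with the run of library numbers in the fit. FL no dox gave 17.4 and 18.2, inside the FL range (log2 difference -0.15 ± 0.186, SE, limma adjusted p = 0.817). The 2 FL libraries of the same run gave 22.45 and 26.96, both above FL no dox, and with the run in the fit the difference was -0.45 (limma adjusted p = 0.357).

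In the other lines the same contact was 11.4 and 11.7 in N/C swap, 11.4 and 13.4 in Y226A-F228A and 9.61 and 12.46 in dN13-33 Y226A-F228A, all below the lowest FL library. It was 14.1 and 14.6 in dN1-88, 13.6 and 19.9 in dN179-265 and 13.99 and 16.1 in H288R. In the untreated parental lines it was 30.9, 32.4 and 35.1 in untagged cells, all above the highest FL library, and 26.0 to 29.7 in CTCF-AID cells. These values are given without a test.

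The contact of the Cited1 bin at 0 kb with the Hdac8 peak bin at 240 kb ranked the groups in another way. Its FL libraries ran from 18.1 to 33.9 units with a median of 25.1, dN1-265 from 14.4 to 30.9 with a median of 21.2, and FL no dox gave 16.6 and 18.9. The limma differences were -0.31 ± 0.126 for dN1-265 (SE, adjusted p = 0.106) and -0.55 ± 0.197 for FL no dox (SE, adjusted p = 0.272), neither past the threshold. The untagged parental libraries were above all FL libraries here too, at 39.3, 40.02 and 43.4. The neighbouring bin at 220 kb, which holds no peak, had a higher contact with the Cited1 bin in FL. Mean log2 observed over expected was 2.20 there and 1.80 at 240 kb. The bin at 220 kb also holds a fragment with a repeated end.

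**Figure D5:**
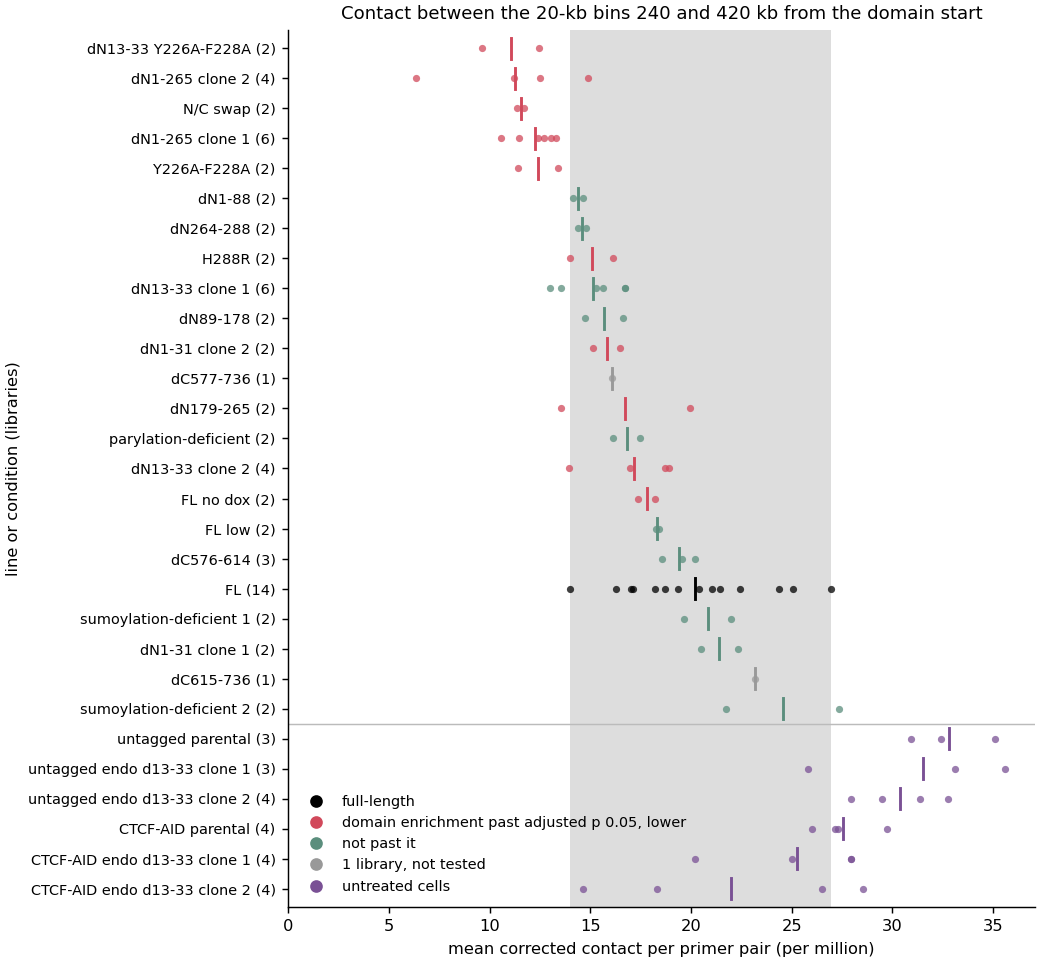
Mean corrected contact per primer pair (units of 1 in 1000000, x axis) between the 20-kb bins at 240 kb (Hdac8 peaks) and 420 kb (after Phka1) in each library by line (y axis, number of libraries in brackets), with ticks at the means, the FL range of 13.997 to 26.96 shaded, and colours as called for domain enrichment. N/C swap, Y226A-F228A alone and with dN13-33, and most dN1-265 libraries lie below the shaded range, and the untagged parental line lies above it.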

How the data were processed

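The 91 5C libraries were mapped by the authors to pairs of 486 forward and 504 reverse primers (mm9); the aligner for 5C is not given in the sources used here. The deposited counts are raw counts per primer pair. The deposited corrected matrices hold a signal, which the authors obtained by iterative correction with cooltools after leaving out poorly covered primers, and were scaled here to a common total. Correction equalises primers, so it removes differences in overall primer coverage. Count matrices of 9 libraries were not used. Peaks came from FLAG ChIP-seq of full-length cells and carry no deposited score.

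Groups followed the labels. The rule for members used positions only, but it and the lists were set with earlier results of these data known. Single values were compared by two-sided exact permutation over libraries (100000 resamples for larger groups). Primer pairs were fitted with limma 3.58.1 (pseudocount 1, mean corrected contact of at least 1), with edgeR 4.0.16 and DESeq2 1.42.0 on counts as alternatives, in R 4.3.3; other steps used Python 3.11.15 and scipy 1.17.1. Named pairs were the 4 largest falls and rises among called members and the 5 highest in FL. Programs were tested on simulated data. Other expected values, raw counts, own correction, distance limits, replicate and run blocks and leaving out each library were alternatives.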

Additional observations from a re-analysis of the deposited data

Results flagged for a closer look

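One library stood apart from the others of its group. The third replicate of CTCF-AID cells with residues 13-33 deleted from endogenous CTCF, clone 2, had a domain enrichment of 0.266, while the other 3 libraries of the clone gave 0.243 to 0.244. The gap to the nearest library was 0.950 of the range of the group. Of 24 groups tested in this way 1 was flagged, and chance flags about 1 in 20.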

How the results depend on the processing

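In FL no dox the domain difference was no longer past the threshold with the mean log2 of 20-kb bin pairs (-0.0434), as percent of contacts at 40 kb or more (-0.443), with replicate numbers as a block (-0.0864) or the library run as a block (-0.0406); within minus across gave -0.171 and -0.156 with these blocks, and end-to-end turned to 0.0245 with the run. In dN1-265, raw counts gave -0.0476 for the domain and -0.0707 within minus across. The number of lines differing from FL was 2 with the mean of bin pairs and with percent, and 0 in the dense left part and with raw counts (16 lines tested). With either block it was 0, but most lines were then 2 libraries against 2, where p cannot go below 0.333 (run) or 0.5 (replicate). With the run as a block no line had enough libraries to pass after adjustment, so the 0 there was fixed in advance. Y226A-F228A gave -0.107 with the run and -0.136 with replicate numbers as a block. Differences that missed the threshold turned sign: CTCF-AID parental against FL gave 0.000744 (expected from outside), 0.00944 (raw counts), 0.00915 (left part) and 0.0206 (percent); the 13-33 deletion gave -0.0271 (bin pairs), -0.0586 (raw counts) and -0.133 (percent) in CTCF-AID cells and -0.0101 (raw counts) and -0.0250 (percent) in untagged cells. So did dN89-178 (0.0499 bin pairs, 0.0216 raw counts), FL low (0.0217 and 0.0206), dN1-88 (0.0601 raw counts), dN1-265 across boundary 3 (-0.0043 raw counts), and dC576-614 (-0.00103), dN264-288 (8.8e-05) and dN13-33 clone 1 (0.0035) in the left part, and with replicate numbers as a block dC576-614 (-0.0219), parylation-deficient (-0.0033) and sumoylation-deficient 1 (-0.00611). The causes were not tested.

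Called primer pairs in dN1-265 numbered 1 with pseudocount 0.25 (0.0297%, against 0.155% of all pairs) and 2 with edgeR (0.0593%, against 0.127% with TMM and 0.109% with RLE). There were 15 with DESeq2 (0.445% against 0.693%) and 0 with either block (against 0.00117% with replicate and 0.0258% with run). Bin pairs gave 45 (11.2% against 13.4%), and 29 with the run (7.23% against 11.6%, of which lower 6.73% against 6.85%). FL no dox had 3 called without a filter (0.0845% against 0.371%) and 2 with DESeq2 (0.0587% against 0.203%). Leaving out each library in turn gave 0 to 9 pairs in dN1-265. The 9, without FL replicate 3 of the seventh run of library numbers, were 0.267% of members, against 0.421% of all pairs. The count was 0 without any one of 4 FL and 2 dN1-265 libraries, against 0.152% to 0.184% of all pairs. In FL no dox, leaving out any FL library gave 0, against 0.00459% to 0.0230% of all pairs. Leaving out each library also gave 9 to 11 lines. Domain differences were -0.0656 to -0.0588 in FL no dox and -0.0901 to -0.0833 in dN1-265. Within minus across was -0.186 to -0.169 in FL no dox, and the CTCF-AID parental difference was -0.0044 to 0.00245. Leaving out either FL no dox library (-0.0638 or -0.0615) left a smallest p of 0.133. The CTCF-AID parental difference turned sign in 5 cases, to 0.000336, 0.000498 and 0.00245 without FL replicate 1 of the first run and FL replicates 2 and 3 of the second, and to 0.00142 and 0.000455 without CTCF-AID parental replicates 1 and 2.

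Replicate numbers shared between groups were not taken to pair the libraries: over 9 pairs of groups, correlations of same-numbered deviations ran from -0.163 to 0.216, and in none were all over 0.1. They were all positive for CTCF-AID parental with its 13-33 clone 2 (0.0524 to 0.216), where libraries of the same run also were (0.0524 to 0.298), as for FL with dN13-33 clone 2 (0.0529 to 0.293). With replicate numbers as a block the FL no dox difference of the Cited1 end with Hdac8 was -0.0222 and the dN1-265 difference of the Cited1 end with Phka1 -0.0423. Over all pairs the median difference of FL no dox was 0.0877 with limma and -0.0927 with edgeR. Raw counts gave no FL no dox value for single comparisons, since 1 of its libraries had complete counts, and the left part gave no end-to-end value.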
